A study of Mus musculus with 16 samples.

Results

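Expression of 9 genes of phosphoinositide 3-kinase (PI3K) signaling was examined in thymic T-cell lymphomas of mice carrying a Dlx5 transgene, an activated Akt2 transgene or both, and in normal thymic T cells of mice with neither transgene (wild type, WT). The 9 genes were the PI3K catalytic subunits Pik3ca, Pik3cd and Pik3cg, the regulatory subunit Pik3r1, the PI3K inhibitor Pik3ip1, and the kinases Akt1, Akt2, Sgk1 and Sgk3. They were chosen by name, with earlier results of these data known. Each was represented by the brightest array feature annotated with that gene symbol alone, out of 22180 genes that had such a feature. Testing was limited to genes brighter than the array median on 3 or more arrays. This left 12932 genes, all 9 of these among them.

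RNA was hybridized to 16 Affymetrix gene expression arrays, 1 per sample, in 5 groups. Double transgenic tumors (Lck-Dlx5;Lck-MyrAkt2) came from 4 mice aged 2 months. Their Dlx5 founder line was 47 in replicates 1 and 2, crossed to Akt2 line 420, and 86 in replicates 3 and 4, for which the labels name no Akt2 line. Lck-Dlx5 tumors came from 3 mice aged 9 months, 1 of each of the founder lines 63, 47 and 86 (replicates 1, 2 and 3). Lck-MyrAkt2 tumors came from 3 mice of founder line 420 and 3 mice of founder line 72, all aged 5 months, and WT samples were thymic T cells of 3 littermates of Lck-Dlx5 mice aged 9 months. MyrAkt2 is Akt2 carrying a myristoylation signal, which holds the kinase at the membrane and keeps it active. In both transgenes the Lck promoter directs expression to T cells, so that other thymic cells were not targeted. The labels code double transgenic replicates 1 and 2 and line 420 replicate 3 by a letter and all other samples by a number, and this form of the code was tried as a term in the fit (the sample code term). Each tumor was 1 lymphoma of 1 mouse, so that genotype and malignancy cannot be told apart in the comparisons with WT. Lck-Dlx5 mice were of the same age as WT, whereas age also differed in the comparisons of double transgenic and Lck-MyrAkt2 tumors with WT. Between tumor groups age differed along with genotype, so that the 2 cannot be told apart there, except between the Lck-MyrAkt2 lines 420 and 72.

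PI3K phosphorylates a membrane lipid when antigen, costimulatory or cytokine receptors of a T cell are engaged, and the lipid product recruits Akt and activates Akt and Sgk kinases. Active Akt and Sgk phosphorylate FoxO transcription factors, which then leave the nucleus, so that the genes FoxO activates are less transcribed. In thymocytes the pathway carries pre-T-cell receptor, Notch and IL-7 signals for growth and survival, and its activation is a common event in T-cell leukemia and lymphoma. Most of this control acts on proteins and lipids. The arrays measured transcripts only.

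Array medians lay between 6.32 and 6.46 on the log2 scale of the deposited values. Pairs of arrays within a group correlated between 0.91 and 0.98 in double transgenic tumors, between 0.95 and 0.98 in the 3 other tumor groups together, and at 0.99 in WT. As a check of the labels, Dlx5 averaged 12.60 in double transgenic tumors, 11.94 in Lck-Dlx5 tumors, 10.28 in line 420 tumors, 6.05 in line 72 tumors and 5.76 in WT. Dlx5 was thus also high in the line 420 tumors, which carry no Dlx5 transgene according to their labels. Of 8 thymic T-cell markers measured, the summed log2 level ranged from 90.9 to 92.6 in double transgenic tumors, 89.0 to 92.1 in Lck-Dlx5, 81.9 to 90.3 in line 420, 78.0 to 80.8 in line 72 and 93.7 to 94.6 in WT. Cd3e, a T-cell receptor component and 1 of these 8 markers, was bright in all 5 groups, with averages between 11.70 and 12.36. Its log2 difference from WT was -0.16 in double transgenic, -0.42 in Lck-Dlx5, -0.51 in line 420 and -0.66 in line 72 tumors. Cd8a averaged 7.54 in line 72 tumors against 12.70 in WT. The 3 WT samples also held transcripts of other thymic cells, such as S100a8 of neutrophils (8.24) and Prss16 of cortical epithelium (8.85). In these bulk samples fewer cells of a type and less RNA per cell cannot be told apart.

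Over the 4 comparisons of tumors with WT, 15 of 36 differences of the 9 genes were called lower and 3 were called higher, at an adjusted p under 0.05 (limma, Benjamini-Hochberg over 12932 genes). All 4 comparisons used the same 3 WT arrays and are not independent of each other. Double transgenic tumors had 0 genes higher and 2 lower (Pik3cd and Pik3cg), against backgrounds of 14.9% and 8.93% of all tested genes. In Lck-Dlx5 tumors 1 gene was higher (Akt1) and 3 were lower (Pik3cd, Pik3ip1 and Sgk3), against 13.7% and 15.9% of tested genes. In line 420 tumors 1 gene was higher (Sgk1) and 6 were lower (Pik3ca, Pik3cd, Pik3cg, Pik3r1, Pik3ip1 and Sgk3), against 15.1% and 15.4%. In line 72 tumors 1 gene was higher (Akt1) and 4 were lower (Pik3ca, Pik3cg, Pik3r1 and Pik3ip1), against 20.7% and 15.6%. The median log2 difference of the 9 genes was -0.33 in double transgenic, -0.30 in Lck-Dlx5, -0.49 in line 420 and -0.62 in line 72 tumors, where the median of all tested genes was 0.051, 0.0046, 0.029 and 0.045. The 15 calls of lower expression fell on the 5 PI3K genes and Sgk3, and the 3 calls of higher expression on Akt1 and Sgk1. All 13 tumors lay below the 3 WT arrays in 4 of the 9 genes, which was so in 9.02% of tested genes, and above them in 1, against 12.1%.

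**Figure D1:**
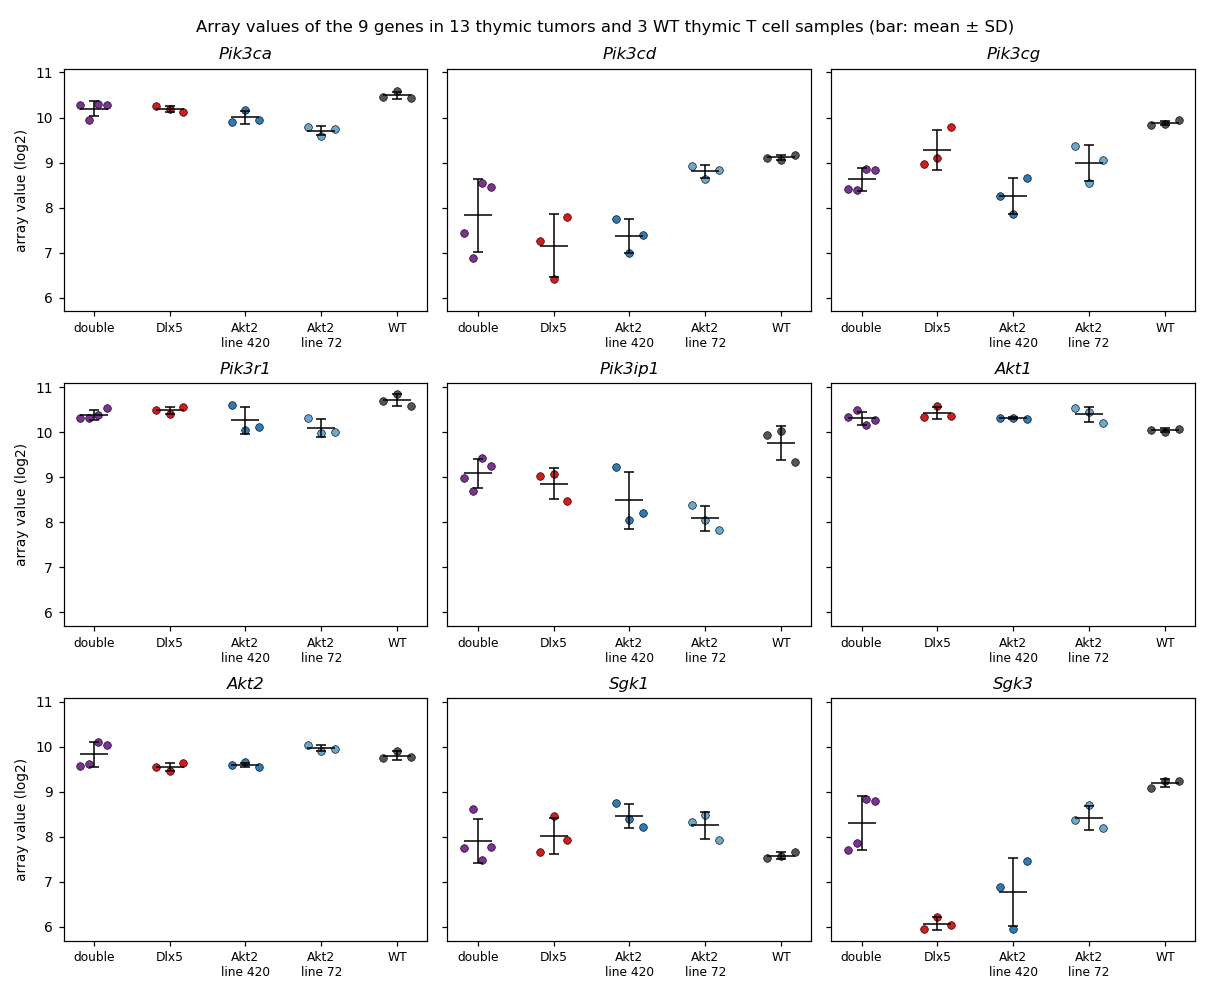
Array values on the log2 scale (y axis, shared by the 9 panels) of each gene in the 5 groups, left to right double transgenic, Lck-Dlx5, Lck-MyrAkt2 line 420, Lck-MyrAkt2 line 72 and WT. Each point is 1 array and the bars show the mean and SD. All 13 tumor points lie below the 3 WT points for Pik3ca, Pik3cd, Pik3cg and Sgk3, and all 13 lie above them for Akt1.

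Pik3ca, which encodes the broadly expressed alpha catalytic subunit, was lower in both Lck-MyrAkt2 lines. Its values were 10.28, 9.94, 10.31 and 10.27 in double transgenic tumors, 10.25, 10.20 and 10.11 in Lck-Dlx5, 9.90, 10.17 and 9.94 in line 420, 9.78, 9.60 and 9.74 in line 72, and 10.45, 10.59 and 10.44 in WT. Every one of the 13 tumors lay below every WT array, and line 72 tumors were below all other tumors. The log2 difference from WT was -0.78 ± 0.12 in line 72 (SE, adjusted p = 0.00018, 1.72-fold lower) and -0.49 ± 0.12 in line 420 (adjusted p = 0.0064). Double transgenic and Lck-Dlx5 tumors differed from WT by -0.29 and -0.30, which did not pass the test (adjusted p = 0.064 and 0.062).

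Pik3cd, which encodes the delta catalytic subunit of leukocytes, carried the widest spread among the PI3K subunits. It measured 7.44, 6.88, 8.55 and 8.45 in double transgenic tumors, 7.26, 6.41 and 7.80 in Lck-Dlx5, 7.74, 6.99 and 7.40 in line 420, 8.93, 8.64 and 8.84 in line 72, and 9.10, 9.07 and 9.17 in WT. The 3 line 72 tumors were the closest to WT, and none of them overlapped with Lck-Dlx5 or line 420 tumors. The log2 difference from WT was -1.96 ± 0.40 in Lck-Dlx5 tumors (adjusted p = 0.0031, 3.89-fold lower), -1.74 ± 0.40 in line 420 (adjusted p = 0.0052) and -1.29 ± 0.37 in double transgenic tumors (adjusted p = 0.024). In line 72 the difference was -0.31 ± 0.40 (adjusted p = 0.59). The double transgenic call was lost without double transgenic replicate 1 or 2 (adjusted p = 0.059 and 0.060) and without WT replicate 1, 2 or 3 (0.071, 0.067 and 0.072), and with only the arrays compared, the sample code term or founder line 86 only (0.052, 0.11 and 0.22). Of 7 neutrophil markers, 6 were called lower than WT in double transgenic and in Lck-Dlx5 tumors, 7 in line 420 and 0 in line 72. The shares of all tested genes called lower were 8.93%, 15.9%, 15.4% and 15.6% in that order. All 7 markers averaged below the array median in double transgenic, Lck-Dlx5 and line 420 tumors. They passed the filter on dim genes through the WT and line 72 arrays, which favours calls of lower expression in the other groups. The summed log2 level of the 7 markers ranged from 37.7 to 40.1 in double transgenic, 38.3 to 39.6 in Lck-Dlx5, 39.2 to 40.1 in line 420, 46.4 to 58.5 in line 72 and 50.8 to 55.4 in WT. Their part in the Pik3cd difference was not tested.

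Pik3cg, which encodes the gamma catalytic subunit that couples to G-protein-coupled receptors, was lower in the 3 tumor groups with an Akt2 transgene. Values were 8.42, 8.38, 8.87 and 8.84 in double transgenic tumors, 8.96, 9.10 and 9.78 in Lck-Dlx5, 8.25, 7.85 and 8.66 in line 420, 9.36, 8.55 and 9.06 in line 72, and 9.84, 9.86 and 9.94 in WT. All 13 tumors were below WT, with Lck-Dlx5 replicate 3 nearest. The log2 difference was -1.62 ± 0.25 in line 420 (adjusted p = 0.00055, 3.08-fold lower), -1.25 ± 0.24 in double transgenic tumors (adjusted p = 0.0025) and -0.89 ± 0.25 in line 72 (adjusted p = 0.014). The line 72 call was lost without its replicate 2 (adjusted p = 0.071). In Lck-Dlx5 tumors the difference was -0.60 ± 0.25 (adjusted p = 0.089), and the 3 Akt2 groups were not shown to differ from Lck-Dlx5 in this gene, since no comparison of Pik3cg between tumor groups passed the test.

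One promoter window is shown for each of the 3 genes in which a searched motif was found; the motifs were chosen because FoxO factors lie downstream of these kinases and Dlx5 is 1 of the transgenes. RefSeq promoters (windows of 300 bases around an annotated start, build GRCm38.p6) were found for 8 of the 9 genes in 21 windows, and Sgk3 had no entry in the table. The FoxO motif GTAAACA, searched on both strands, was held by 2 of the 21 windows, 1 each of Pik3cg and Akt1, and by 3.65% of all 32851 promoter windows of the table. The Dlx core TAATT was held by 3 of the 21 windows, of Pik3cg and Sgk1, and by 27.0% of all windows. In the sequences below capitals mark the motif, which begins at position -92 from the start in Pik3cg, at -161 in Akt1 on the opposite strand, and at -120 in this Sgk1 window.
Pik3cg promoter, minus strand, chr12:32208421-32208720: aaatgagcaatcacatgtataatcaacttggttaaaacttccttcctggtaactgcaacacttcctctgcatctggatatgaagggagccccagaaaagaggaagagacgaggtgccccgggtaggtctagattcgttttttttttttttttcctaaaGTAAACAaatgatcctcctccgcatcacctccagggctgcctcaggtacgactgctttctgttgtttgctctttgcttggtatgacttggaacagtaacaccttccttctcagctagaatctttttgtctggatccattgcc
Akt1 promoter, minus strand, chr12:112674835-112675134: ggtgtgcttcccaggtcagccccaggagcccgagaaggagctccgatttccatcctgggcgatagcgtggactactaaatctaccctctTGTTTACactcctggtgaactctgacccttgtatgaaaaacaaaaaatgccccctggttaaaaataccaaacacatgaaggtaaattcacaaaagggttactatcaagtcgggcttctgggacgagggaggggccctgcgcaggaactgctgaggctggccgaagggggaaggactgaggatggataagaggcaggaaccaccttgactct
Sgk1 promoter, plus strand, chr10:21991973-21992272: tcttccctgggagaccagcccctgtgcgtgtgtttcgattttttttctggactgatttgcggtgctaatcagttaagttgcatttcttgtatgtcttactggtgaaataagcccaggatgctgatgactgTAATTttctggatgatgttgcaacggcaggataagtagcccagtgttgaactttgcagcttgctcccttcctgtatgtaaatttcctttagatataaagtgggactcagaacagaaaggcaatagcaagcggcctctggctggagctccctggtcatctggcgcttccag
A match is a description of the letters, and no binding was measured.

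Pik3r1, which encodes the regulatory subunits that stabilize and restrain the catalytic subunits, was lower in both Lck-MyrAkt2 lines by a small amount. It measured 10.31, 10.31, 10.37 and 10.54 in double transgenic tumors, 10.48, 10.41 and 10.56 in Lck-Dlx5, 10.61, 10.05 and 10.12 in line 420, 10.31, 9.97 and 9.99 in line 72, and 10.70, 10.84 and 10.59 in WT. Of the 13 tumors 12 lay below every WT array, the exception being line 420 replicate 1. It differed from WT by -0.62 ± 0.15 on the log2 scale in line 72 (adjusted p = 0.0046, 1.53-fold lower) and -0.45 ± 0.15 in line 420 (adjusted p = 0.030). The line 420 call was lost without line 420 replicate 2 or 3 (adjusted p = 0.12 and 0.11) or WT replicate 1 or 2 (0.074 and 0.12), and with medians aligned, only the arrays compared or the sample code term (0.052, 0.069 and 0.066). In double transgenic and Lck-Dlx5 tumors the differences were -0.33 and -0.23 (adjusted p = 0.095 and 0.26). Between tumor groups no comparison of Pik3r1 passed the test.

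Pik3ip1, a membrane protein that binds the catalytic subunit and inhibits PI3K, was lower in all 3 single transgenic groups. Its values were 8.99, 8.68, 9.43 and 9.25 in double transgenic tumors, 9.03, 9.08 and 8.47 in Lck-Dlx5, 9.22, 8.05 and 8.20 in line 420, 8.39, 8.05 and 7.83 in line 72, and 9.93, 10.02 and 9.33 in WT. WT replicate 3 was the lowest WT array, and double transgenic replicate 3 was the 1 tumor above it. Relative to WT the log2 difference was -1.67 ± 0.30 in line 72 (adjusted p = 0.00078, 3.18-fold lower), -1.27 ± 0.30 in line 420 (adjusted p = 0.0061) and -0.90 ± 0.30 in Lck-Dlx5 tumors (adjusted p = 0.036). The Lck-Dlx5 call was lost without Lck-Dlx5 replicate 1 or 3 (adjusted p = 0.052 and 0.14) or WT replicate 1 or 2 (0.11 and 0.13). In double transgenic tumors the difference was -0.67 ± 0.28 (adjusted p = 0.098). Double transgenic tumors were not shown to differ in Pik3ip1 from Lck-Dlx5 or line 420 tumors (limma, adjusted p = 0.70 and 0.32). They were called higher than line 72 tumors, as given below.

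**Figure D2:**
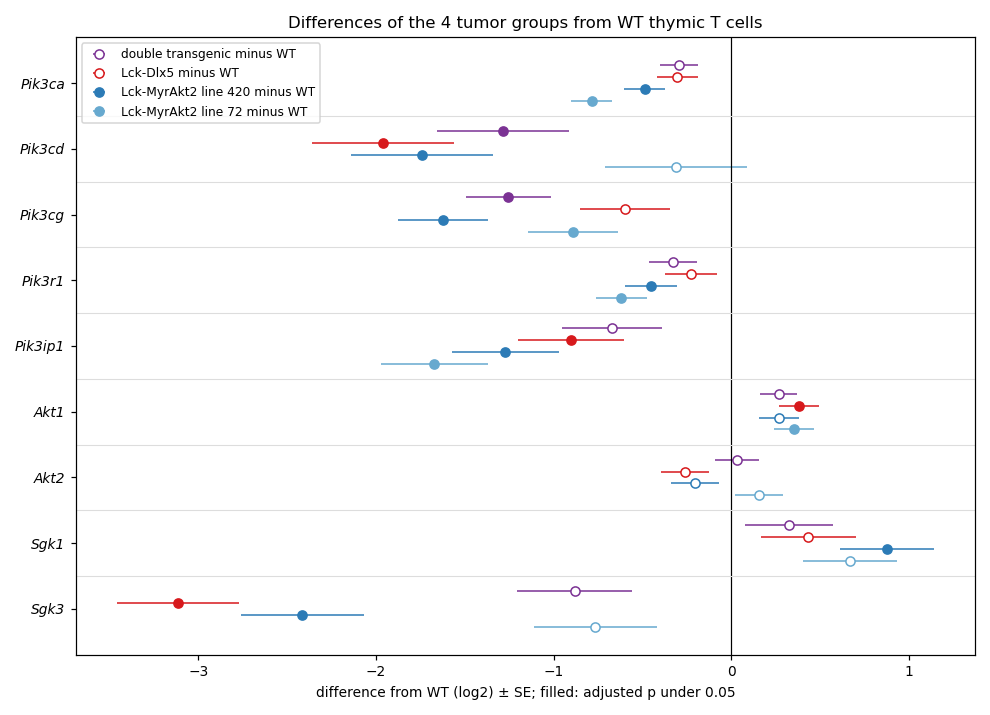
Log2 difference from WT (x axis) of each gene in double transgenic, Lck-Dlx5, line 420 and line 72 tumors (top to bottom within a gene), with bars of 1 SE from limma. Filled points passed the adjusted p threshold of 0.05, and the 2 differences farthest from 0 belong to Sgk3, at -3.11 in Lck-Dlx5 and -2.41 in line 420 tumors.

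Akt1, the most widely expressed Akt kinase, was slightly higher in Lck-Dlx5 and line 72 tumors. It measured 10.33, 10.50, 10.15 and 10.26 in double transgenic tumors, 10.33, 10.58 and 10.36 in Lck-Dlx5, 10.32, 10.32 and 10.29 in line 420, 10.53, 10.45 and 10.21 in line 72, and 10.06, 9.99 and 10.07 in WT. All 13 tumors lay above the 3 WT arrays. The log2 difference was 0.38 ± 0.11 in Lck-Dlx5 (adjusted p = 0.020, 1.30-fold higher), 0.35 ± 0.11 in line 72 (adjusted p = 0.023), 0.27 ± 0.11 in line 420 (adjusted p = 0.083) and 0.27 ± 0.10 in double transgenic tumors (adjusted p = 0.078). The Lck-Dlx5 call was lost without Lck-Dlx5 replicate 2 (adjusted p = 0.079) or WT replicate 1 or 2 (0.055 and 0.071), and the line 72 call without line 72 replicate 1 or 2 (0.092 and 0.072) or WT replicate 1 or 2 (0.057 and 0.079). Between tumor groups no comparison of Akt1 passed the test.

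Akt2, whose activated form is 1 of the transgenes, did not pass the test against WT in any tumor group. It measured 9.58, 9.61, 10.11 and 10.04 in double transgenic tumors, 9.55, 9.46 and 9.63 in Lck-Dlx5, 9.59, 9.65 and 9.56 in line 420, 10.04, 9.91 and 9.94 in line 72, and 9.74, 9.91 and 9.76 in WT. Line 420 tumors, which carry the Akt2 transgene, lay below all WT arrays, and Lck-Dlx5 tumors, which do not, overlapped with line 420. The log2 difference from WT was 0.033 ± 0.13 in double transgenic tumors (adjusted p = 0.88), -0.26 ± 0.13 in Lck-Dlx5 (0.16), -0.20 ± 0.13 in line 420 (0.27) and 0.16 ± 0.13 in line 72 (0.40). Whether the probes of this feature read transgene transcripts is not given in the sources used here.

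Sgk1, a kinase of the Akt family whose transcription responds to glucocorticoids and growth factors, was higher in line 420 tumors. It measured 7.76, 8.63, 7.48 and 7.77 in double transgenic tumors, 7.67, 8.46 and 7.93 in Lck-Dlx5, 8.76, 8.40 and 8.22 in line 420, 8.34, 8.49 and 7.93 in line 72, and 7.52, 7.57 and 7.66 in WT. Of the 13 tumors 12 lay above every WT array and double transgenic replicate 3 lay below them. The log2 difference was 0.88 ± 0.27 in line 420 (adjusted p = 0.023, 1.84-fold higher), 0.67 ± 0.27 in line 72 (0.063), 0.44 ± 0.27 in Lck-Dlx5 (0.24) and 0.32 ± 0.25 in double transgenic tumors (0.38). The line 420 call was lost without line 420 replicate 1 (adjusted p = 0.090) or WT replicate 1 or 2 (0.069 and 0.064). Line 420 was not shown to differ in Sgk1 from the other tumor groups, since no comparison between tumor groups passed the test.

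Sgk3, an Akt-related kinase that binds endosomal phosphoinositide through its PX domain, had the largest differences from WT among the 9 genes. It measured 7.72, 7.87, 8.85 and 8.81 in double transgenic tumors, 5.96, 6.23 and 6.05 in Lck-Dlx5, 6.90, 5.97 and 7.47 in line 420, 8.37, 8.71 and 8.19 in line 72, and 9.09, 9.24 and 9.24 in WT. The 3 Lck-Dlx5 values and line 420 replicate 2 were below their own array medians, so that Sgk3 was near the dim end of the array there. Relative to WT the measured log2 difference was -3.11 ± 0.35 in Lck-Dlx5 tumors (adjusted p = 7.4e-05) and -2.41 ± 0.35 in line 420 (adjusted p = 0.00032). With the Lck-Dlx5 values raised to their array medians as a floor, Sgk3 was at least 6.75-fold lower in Lck-Dlx5 tumors than in WT. In line 420 tumors, 2 of 3 arrays were above their medians and the measured fold was 5.33. In double transgenic and line 72 tumors the differences were -0.88 ± 0.32 and -0.76 ± 0.35 (adjusted p = 0.063 and 0.10). The range of the 5 group means of Sgk3 was 3.11, wider than in 98.9% of tested genes, where the median gene had a range of 0.55.

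The ranges of group means of the other members were 1.96 for Pik3cd, 1.67 for Pik3ip1, 1.62 for Pik3cg, 0.88 for Sgk1, 0.78 for Pik3ca, 0.62 for Pik3r1, 0.42 for Akt2 and 0.38 for Akt1. In a moderated F test across the 5 groups 6 of the 9 genes passed the threshold, against 47.2% of all tested genes, and the 3 that did not were Akt1, Akt2 and Sgk1 (adjusted p = 0.060, 0.072 and 0.082). When the 5 groups were ordered by the mean of a gene, 0 of the 36 neighbouring pairs of groups differed past the threshold (lowest adjusted p = 0.064, for Pik3ca in double transgenic tumors against WT). Neighbours in such an order are the closest groups by construction, so that this count says nothing of pairs farther apart. WT was highest for Pik3ca, Pik3cd, Pik3cg, Pik3r1, Pik3ip1 and Sgk3, and lowest for Akt1 and Sgk1.

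Differences between tumor groups were fewer, with 9 of 54 called over 6 pairs of groups. Lck-Dlx5 tumors differed from line 72 tumors in 4 genes. Lower in Lck-Dlx5 were Sgk3, with a log2 difference of -2.35 ± 0.35 (adjusted p = 0.00051), Pik3cd with -1.65 ± 0.40 (adjusted p = 0.011) and Akt2 with -0.42 ± 0.13 (adjusted p = 0.043), against a background of 12.8%. Pik3ca was higher by 0.48 ± 0.12 (adjusted p = 0.011), against 6.94%. The Akt2 call was lost when any 1 of the 6 arrays compared was left out (adjusted p between 0.058 and 0.12), and also with quantile normalization, without the filter on dim genes, with only the arrays compared and without the line 420 arrays (0.058, 0.055, 0.056 and 0.061). Lck-Dlx5 tumors did not differ from line 420 tumors in any of the 9 genes by limma at an adjusted p under 0.05, where 0.286% of tested genes were called higher and 0.541% lower. At an unadjusted p under 0.05, 1 of the 9 genes passed, against 14.8% of all tested genes.

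The 2 Lck-MyrAkt2 founder lines differed from each other in Sgk3 and Pik3cd, both lower in line 420, against 7.45% of tested genes, and in 0 genes higher, against 3.73%. The log2 difference was -1.65 ± 0.35 for Sgk3 (adjusted p = 0.0070) and -1.43 ± 0.40 for Pik3cd (adjusted p = 0.033). The Pik3cd call was lost without line 420 replicate 2 or 3 (adjusted p = 0.12 and 0.072) or line 72 replicate 1, 2 or 3 (0.095, 0.063 and 0.090), and with the sample code term (0.054). The levels of Dlx5, T-cell markers and neutrophil markers in these lines are given above, and their part in the Sgk3 and Pik3cd differences was not tested.

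Double transgenic tumors were higher than Lck-Dlx5 tumors in Sgk3 by 2.23 ± 0.32 (adjusted p = 0.0090, at least 3.66-fold with the same floor), the 1 gene of the 9 called, against 1.38% of tested genes higher and 0.487% lower. That call was lost with only the arrays compared and with founder line 47 only (adjusted p = 0.18 and 0.066). Double transgenic tumors were higher than line 72 tumors in Pik3ip1 by 1.00 ± 0.28 (adjusted p = 0.025) and in Pik3ca by 0.49 ± 0.11 (adjusted p = 0.0067), against 9.19% higher and 8.51% lower. The Pik3ip1 call was lost without double transgenic replicate 3 or 4 (adjusted p = 0.063 and 0.057) or line 72 replicate 2 or 3 (0.072 and 0.10) and with founder line 47 only (0.16), and the Pik3ca call with only the arrays compared or founder line 47 only (0.053 and 0.059). Against line 420 tumors 0 of the 9 genes were called by limma, where 0.124% of tested genes were called higher and 0.0541% lower. At an unadjusted p under 0.05, 3 of the 9 genes passed, against 15.5% of all tested genes.

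The 4 double transgenic tumors were 2 of Dlx5 founder line 86 and 2 of founder line 47. In 6 of the 9 genes (Pik3cd, Pik3cg, Pik3r1, Pik3ip1, Akt2 and Sgk3) both founder line 86 tumors lay above both founder line 47 tumors, which was so in 26.2% of tested genes. In Akt1 both lay below, against 25.0% of tested genes, and in Pik3ca and Sgk1 the pairs overlapped. Akt2 was 10.11 and 10.04 in founder line 86 tumors against 9.58 and 9.61 in founder line 47 tumors, Pik3cd was 8.55 and 8.45 against 7.44 and 6.88, and Sgk3 was 8.85 and 8.81 against 7.72 and 7.87. These 3 genes were picked after their values were seen, and no test was made of the pairs. Beside these pairs, line 420 tumors averaged 9.60 for Akt2, 7.38 for Pik3cd and 6.78 for Sgk3, and line 72 tumors averaged 9.96, 8.80 and 8.43. The sample codes of the pairs also differ in form, so that founder line, Akt2 line and any shared handling cannot be told apart.

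**Figure D3:**
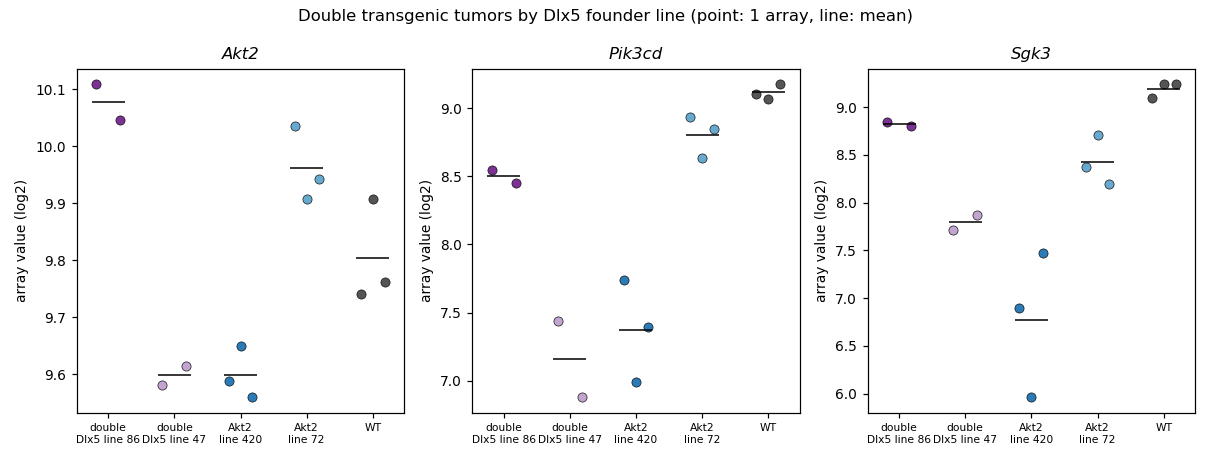
Array values on the log2 scale (y axes, 1 per panel and not starting at 0) of Akt2, Pik3cd and Sgk3 in double transgenic tumors of Dlx5 founder lines 86 and 47, in Lck-MyrAkt2 tumors of lines 420 and 72, and in WT. Each point is 1 array and each line a mean. The 2 tumors of founder line 86 lie above the 2 of founder line 47 in each panel.

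Other genes of the pathway were read from lists of named genes, which were also chosen with earlier results of these data known. Their counts stand beside the shares of all tested genes called against WT, which were 14.9% higher and 8.93% lower in double transgenic, 13.7% and 15.9% in Lck-Dlx5, 15.1% and 15.4% in line 420, and 20.7% and 15.6% in line 72 tumors. Among 6 further class I subunits and adaptors, Pik3r5, the regulatory partner of Pik3cg, was lower in all 4 tumor groups, with log2 differences of -1.18 in double transgenic, -1.41 in Lck-Dlx5, -1.90 in line 420 and -1.89 in line 72 (adjusted p = 0.012, 0.0058, 0.00087 and 0.00052). Pik3r3, another regulatory subunit, was higher by 2.23 in double transgenic (SE 0.42, adjusted p = 0.0025), by 1.69 in Lck-Dlx5 (SE 0.45, adjusted p = 0.013) and by 2.36 in line 420 tumors (SE 0.45, adjusted p = 0.0018). In line 72 tumors Pik3r2 was the 1 member of the list called higher, by 1.01 (SE 0.16, adjusted p = 0.00027), and it was also higher in Lck-Dlx5 tumors, by 0.65 (adjusted p = 0.0079). Over the list, 1 of 6 was lower in each tumor group, 2 of 6 were higher in Lck-Dlx5 tumors and 1 of 6 was higher in each of the other groups. Of 4 class II and III PI3K genes tested, Pik3c2a was lower in Lck-Dlx5 (-0.43) and in line 72 tumors (-0.99; adjusted p = 0.041 and 0.00020), and 0 were called in double transgenic or line 420 tumors. Sgk2, another Sgk kinase, did not pass the filter on dim genes and was not tested.

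Among the 7 tested phosphatases of the lipid products or of Akt, Inpp4b, a lipid phosphatase that restrains Akt signaling, was lower in all 4 tumor groups, with log2 differences of -2.20 in double transgenic, -3.49 in Lck-Dlx5, -2.99 in line 420 and -3.33 in line 72 (adjusted p = 0.0011, 6.9e-05, 0.00016 and 3.1e-05). Its values in all Lck-Dlx5 and line 72 tumors were below the array medians. Inppl1, the SHIP2 lipid phosphatase, was higher in all 4, by 0.85, 0.62, 1.07 and 1.25 in the same order (adjusted p = 0.00057, 0.0046, 0.00015 and 1.8e-05). Counts over the list were 1 higher and 1 lower in double transgenic and line 420 tumors, and 1 higher and 2 lower in Lck-Dlx5 and line 72 tumors.

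Among 6 genes of the kinases that phosphorylate Akt and Sgk, 0 were higher and 2 lower in double transgenic and line 420 tumors, 1 higher and 1 lower in Lck-Dlx5, and 1 higher and 2 lower in line 72. Rictor, the defining subunit of mTOR complex 2, was lower in double transgenic, line 420 and line 72 tumors, with log2 differences of -0.76, -0.90 and -0.68 (adjusted p = 0.0076, 0.0029 and 0.011), and measured -0.40 in Lck-Dlx5 tumors (0.12). Pdpk1, which phosphorylates the activation loop of both kinase families, was lower in all 4 groups, with log2 differences of -0.39 in double transgenic, -0.61 in Lck-Dlx5, -0.84 in line 420 and -0.80 in line 72 tumors (adjusted p = 0.049, 0.0067, 0.00092 and 0.00077). Mapkap1 was higher by 0.43 in Lck-Dlx5 (adjusted p = 0.040) and Prr5 by 2.97 in line 72 (SE 0.92, adjusted p = 0.022), both mTOR complex 2 subunits.

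Of 9 tested inputs to PI3K in T cells, 0 were higher in any group, and 3 were lower in double transgenic, 3 in Lck-Dlx5, 5 in line 420 and 4 in line 72 tumors, with list medians of -0.78, -0.46, -1.21 and -0.86 on the log2 scale, where the medians of all tested genes were 0.051, 0.0046, 0.029 and 0.045. Icos, a costimulatory receptor that binds PI3K, was lower in all 4 groups, with log2 differences of -1.91 in double transgenic, -2.22 in Lck-Dlx5, -2.22 in line 420 and -1.99 in line 72 tumors (adjusted p = 0.0018, 0.00098, 0.00074 and 0.00090). Cd28, the main costimulatory receptor, was lower in line 420 (-2.73 ± 0.95, adjusted p = 0.042), and Il7r, the IL-7 receptor chain, in Lck-Dlx5 (-3.26 ± 0.50, adjusted p = 0.00061) and double transgenic tumors (-1.49 ± 0.46, adjusted p = 0.032). Of 11 tested substrates of Akt and Sgk, 0 were higher, and 2, 2, 4 and 4 were lower in double transgenic, Lck-Dlx5, line 420 and line 72 tumors. Ndrg2, a substrate of Sgk1, had the largest called difference of the list in double transgenic (-0.93, adjusted p = 0.018), Lck-Dlx5 (-1.23, 0.0053) and line 420 tumors (-1.31, 0.0030), and Nedd4l, a ubiquitin ligase, in line 72 (-0.95, 0.037).

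Genes that FoxO factors activate were lower in 5 of 9 in double transgenic, 7 of 9 in Lck-Dlx5, 6 of 9 in line 420 and 6 of 9 in line 72 tumors, against 8.93%, 15.9%, 15.4% and 15.6% of all tested genes, and 0 were higher. Their median log2 difference was -0.54, -0.99, -0.67 and -1.51 in that order, beside 0.051, 0.0046, 0.029 and 0.045 over all tested genes, and 1 gene, Il7r, was shared with the list of inputs. Ccr7, a chemokine receptor of mature T cells, was lower in all 4 groups, with log2 differences of -2.27 in double transgenic, -2.83 in Lck-Dlx5, -2.63 in line 420 and -2.49 in line 72 tumors (adjusted p between 0.00011 and 0.00040). Bcl6, a transcriptional repressor, was lower by the same test in all 4 as well, at -1.72, -1.71, -3.24 and -2.50 in that order (adjusted p = 0.017, 0.021, 0.00051 and 0.0017). Ccr7 also marks mature thymocytes, and thymic T-cell markers were lower in 1 of 8, 3 of 8, 6 of 8 and 6 of 8 in double transgenic, Lck-Dlx5, line 420 and line 72 tumors. Their part in the FoxO list was not tested. The glucocorticoid response genes other than Sgk1 were called higher in 0 of 8 in double transgenic, 1 of 8 in Lck-Dlx5, 0 of 8 in line 420 and 4 of 8 in line 72 tumors. Their part in the Sgk1 values was not tested. Klf9, a transcription factor, was higher by 2.68 in line 72 (SE 0.26, adjusted p = 7.5e-06). Fkbp5, a chaperone of the glucocorticoid receptor, was higher by 0.90 in Lck-Dlx5 and 0.80 in line 72 (adjusted p = 0.014 and 0.020), and Nfkbia was lower in double transgenic, Lck-Dlx5 and line 420 tumors (-0.84, -0.88 and -1.08; adjusted p = 0.039, 0.037 and 0.013).

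**Figure D4:**
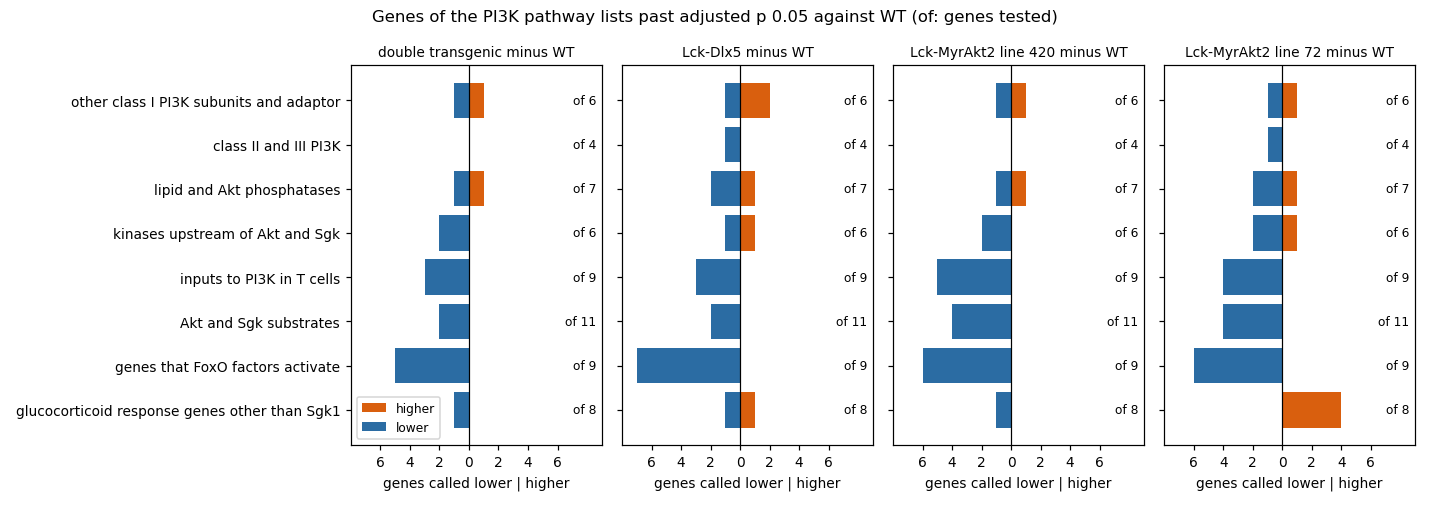
Number of genes of each pathway list called lower (bars to the left) and higher (bars to the right) against WT, in panels for double transgenic, Lck-Dlx5, line 420 and line 72 tumors, at an adjusted p under 0.05. The number of genes tested is printed at the right of each row. The list of genes that FoxO factors activate reaches 5, 7, 6 and 6 of 9 lower.

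Macrophage markers were higher in 1, 2, 3 and 4 of 6 in double transgenic, Lck-Dlx5, line 420 and line 72 tumors, and thymic epithelial markers were lower in 4, 6, 6 and 4 of 6. Shares of all tested genes called higher and lower are those given with the pathway lists. Of the 6 epithelial markers, 4, 5, 4 and 3 averaged below the array median in these tumor groups, and 1 did in WT. Psmb11 measured 6.53 to 6.69 in WT and at most 5.91 in any tumor, below all array medians. It passed the filter on dim genes through the WT arrays alone, which favours calls of lower expression in the tumors. B-cell markers were lower in 1, 3, 1 and 4 of 4 in the same order of groups. Of 5 B-cell markers measured, the untested Ebf1 among them, 2, 4, 1 and 4 averaged below the array median in these groups. In WT 1 did. Markers of fibroblasts and endothelium were higher in 0, 0, 2 and 3 of 7, and 1 of the 7 was lower in line 420 tumors. The summed log2 level of the 6 epithelial markers ranged from 35.4 to 39.7 in double transgenic, 35.4 to 36.9 in Lck-Dlx5, 36.1 to 36.5 in line 420, 38.9 to 39.6 in line 72 and 43.3 to 45.1 in WT. That of the 6 macrophage markers ranged from 46.2 to 50.7, 46.7 to 49.8, 49.7 to 52.4, 50.1 to 57.4 and 45.0 to 47.2 in the same order. The part of these cells in the values of the 9 genes was not tested.

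Over the 16 arrays, the 5 pairs of members that varied most alike were Pik3r1 and Pik3ip1 (Pearson r = 0.89, and 0.75 for deviations from group means), Pik3cd and Sgk3 (0.82 and 0.54), Pik3ca and Pik3ip1 (0.81 and 0.20), Pik3cd and Akt2 (0.77 and 0.78) and Akt1 and Sgk1 (0.75 and 0.86). Pik3ca and Sgk1 ran most opposite (-0.71 and -0.66). These are descriptions from 36 pairs, to which differences between groups contribute. For the 3 members with the widest range, the tested genes most like Sgk3 were Zfp418, Zbtb24 and Tes (r = 0.94, 0.93 and 0.92, and 0.86, 0.75 and 0.70 within groups). Those most like Pik3cd were Stk17b, Shisa5 and Slc37a3 (0.96 each, and 0.97, 0.88 and 0.95 within groups), and those most like Pik3ip1 were Bmf, Mindy2 and Cfap74 (0.93 each, and 0.92, 0.75 and 0.75 within groups). Stk17b is a T-cell kinase and Bmf a proapoptotic protein of the BH3-only class. Stk17b averaged 10.81 in double transgenic, 10.47 in Lck-Dlx5, 10.17 in line 420, 11.48 in line 72 and 11.90 in WT.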

How the data were processed

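Gene expression was measured on Affymetrix Mouse Gene ST arrays, 1 per sample. The deposited values are log2 expression values per array feature made by the authors; the submitters' processing notes name Affymetrix Expression Console, and the method of normalization and the genome build are not given in the sources used here. Features were named from the platform annotation: of 41345 features 23521 had 1 gene symbol, 1820 had several and 16004 had none, and only the first were used. The brightest feature stood for a gene, and a gene was tested where it exceeded the array median on at least 3 of 16 arrays. Groups came from the labels. All groups entered 1 fit in limma 3.58.1 (R 4.3.3), and p-values were adjusted by Benjamini-Hochberg over all 12932 tested genes. Data for 16 arrays and 12932 genes were simulated from each gene's mean over all arrays and its spread within the 5 groups. Changes were added to the Lck-Dlx5 arrays only. Against WT, 81 of 100 genes changed by 1 on the log2 scale and 98 of 100 changed by 2 were recovered. Named genes were all 9 members, the list members with the largest called difference in each direction, and the 3 genes most like each of the 3 widest-ranging members. The members and lists were chosen with earlier results of these data known. Array numbers limit precision, with 3 or 4 per group, and separate tumors are separate mice. Alternatives were other scalings, filters, feature rules and fits, subsets of founder lines and leaving out each array.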

Additional observations from a re-analysis of the deposited data

Results flagged for a closer look

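Among the 4 double transgenic tumors, replicate 2 was set apart for Pik3ca: its value of 9.94 left a gap to the next tumor that covered 0.916 of the range of the 4 values (9.94 to 10.31). Chance sets apart about 1 in 20 groups in such a check, and all 9 genes were checked. The difference from WT was not the same in the 2 Lck-MyrAkt2 founder lines for Pik3cd and Sgk3. Since both lines were set against the same WT arrays, this is the difference between line 420 and line 72 tumors themselves. It was -1.43 for Pik3cd (adjusted p = 0.033, limma) and -1.65 for Sgk3 (adjusted p = 0.0070) on the log2 scale. The Pik3cd call was lost under 6 of 15 alternatives (adjusted p between 0.0072 and 0.12 over the 15), and the Sgk3 call under none of them. Dlx5 averaged 10.28 in line 420 and 6.05 in line 72 tumors, and its part in these differences was not tested.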

How the results depend on the processing

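No paired analysis was possible because only the WT labels carry replicate numbers. Counts of the 9 genes called changed as follows, and the cause was not tested unless fewer arrays entered the fit. Against WT, the 2 calls in double transgenic tumors became 4 with array weights, 1 with only the arrays compared, 1 with the form of the sample code as a term, 5 with founder line 47 tumors only, and 1 with founder line 86 tumors only. The 5 calls in line 72 tumors became 8 with only the arrays compared. Between tumor groups, the 2 calls of line 420 against line 72 became 1 with the sample code term. The 1 call of double transgenic against Lck-Dlx5 tumors became 0 with only the arrays compared, 2 with the sample code term, 0 with founder line 47 only and 3 with founder line 86 only. The 2 calls of double transgenic against line 72 tumors became 1 with only the arrays compared, and the 0 calls against line 420 tumors became 1 with array weights, 1 with the sample code term and 4 with founder line 86 only. Leaving out each array in turn gave 1 to 4 calls for double transgenic tumors, 2 to 4 for Lck-Dlx5, 5 to 7 for line 420 and 3 to 6 for line 72 tumors against WT, 3 to 4 for Lck-Dlx5 against line 72 tumors, 1 to 2 for line 420 against line 72 tumors, 1 to 2 for double transgenic against line 72 tumors and 0 to 2 for double transgenic against line 420 tumors, and 5 to 9 genes in the F test. The Lck-Dlx5 count of 4 was 2 without WT replicate 1 or 2, and the line 72 count of 5 was 3 without line 72 replicate 2. Akt2 in double transgenic tumors against WT, 0.033 in the fit of all arrays, reversed to -0.21 with founder line 47 only, and ranged from -0.057 to 0.12 when 1 array was left out, with values below 0 without double transgenic replicate 3 (-0.057) or 4 (-0.036). Under the alternatives the called differences kept direction and threshold in 383 values and fell short of the threshold in 55, with 0 reversed. Calls over all genes ranged from 1538 to 4754 for double transgenic (3079 with all arrays), 2332 to 5289 for Lck-Dlx5 (3828) and 2612 to 5405 for line 420 tumors (3946) against WT. Between tumor groups they ranged from 1576 to 2908 for Lck-Dlx5 against line 72 (2548), 6 to 171 for Lck-Dlx5 against line 420 (107), 813 to 1640 for line 420 against line 72 (1445), 0 to 1932 for double transgenic against Lck-Dlx5 (241), 1203 to 3044 against line 72 (2290) and 3 to 1321 against line 420 (23). The number of arrays limits precision. In the fit of all arrays, p-values rest on 1 moderated estimate per gene of the spread between mice, shared by the 5 groups. The spread of a single group can differ from it: the SD of Pik3cd was 0.055 in WT and 0.81 in double transgenic tumors.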
